A study of Mus musculus with 12 samples.

Results

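Collagens are the triple-helical proteins that form the fibrils, networks and filaments of the extracellular matrix. The genes described here are the collagen genes of the mouse urinary bladder, chosen by name: every array probe whose gene name reads Col, a number, a and a number. Where a name had several probes, the brightest on average stood for it, and it was kept if well above background on at least 4 of 12 arrays. The arrays held 78 such probes for 40 names, and 37 genes were kept of 18394 genes tested in all. Total RNA of whole bladder came from wild-type C57BL/6 female mice aged 10 weeks, kept for 2 weeks in a daily cycle of 12 h light and 12 h dark and then moved to constant darkness. No group carried a transgene, a deletion or a drug. The groups were circadian time (CT) 0, 4, 8, 12, 16 and 20 h, every 4 h, with 2 arrays of 1 colour (Cy3) for each. The labels do not say how long the darkness had lasted or whether an array held 1 mouse, so p-values measure the spread between arrays, which may be technical.

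Collagen chains are made in the endoplasmic reticulum, where hydroxylases and chaperones let 3 chains wind into a helix, and are then secreted, trimmed and crosslinked outside the cell. Fibrillar collagens (types I, II, III, V, XI, XXIV and XXVII) bear tension, with type I and type III the bulk of the fibrils in soft tissue and type V thought to start and limit their growth. Type IV forms the sheet of basement membranes, type VI forms beaded filaments around cells, and the fibril-associated types decorate fibril surfaces. In the bladder, collagen lies mostly in the lamina propria and between bundles of smooth muscle, where it sets how far the wall stretches during filling and contracts back on voiding. Interstitial collagens are made mainly by fibroblasts and to a lesser degree by smooth muscle cells. The question addressed is whether their transcripts change with circadian time in an organ with a daily rhythm of filling.

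Levels are log2 of the processed spot intensity minus the 75th percentile of its array, so a level of 0 equals that percentile. Probes differ in how well they bind, so levels were compared between times and never between genes. The fold of a 24 h wave is the fitted peak over the fitted trough, and the range after it gives that fold for an amplitude 1 standard error (SE) smaller and larger. P-values come from limma, adjusted by Benjamini-Hochberg over all 18394 genes, with a threshold of 0.05. Since the tissue is whole bladder, fewer cells of a type and less RNA per cell cannot be told apart.

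The arrays were of like brightness and lay on 3 slides, which limits the reading of times 12 h apart. The 75th percentile lay between 793.2 and 917.1 intensity units, 64.2 to 70.2% of spots were well above background, and 0 spots were saturated. Slide 1 held CT0 and CT4, slide 2 CT8 and CT12, and slide 3 CT16 and CT20, all scanned on 1 day. Fibroblast markers (15 of 15), smooth muscle markers (12 of 12) and urothelial markers (14 of 14 on the array) were well above background on every array. As a check of the time labels, 10 of 12 core clock genes passed the 24 h test.

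Of the 37 collagens, 35 were well above background on all 12 arrays. Col9a3 was so on 11 arrays. Col28a1, a type linked to peripheral nerve, was at the limit of the rule, with 1 array at CT4, 2 at CT12 and 1 at CT20. The 3 names left out were Col4a3 and Col9a1, each above background on 1 array at CT12, and Col10a1, the type of growth-plate cartilage, on 0 arrays. By role the kept genes were 11 fibrillar, 7 network-forming, 4 beaded-filament, 8 fibril-associated, 1 anchoring-fibril, 4 transmembrane and 2 multiplexin collagens, the last named for a triple helix with many interruptions.

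Col5a3, which encodes a type V chain of narrower tissue range than its partners Col5a1 and Col5a2, was the only collagen past the threshold for a 24 h wave. Its level was high in the subjective morning and low in the subjective night, with a fitted fold of 3.18 (2.73 to 3.71) and a peak at CT4.7 with an SE of 0.51 h (adjusted p = 0.0208). That is 1 of 37 collagens, where 0.62% of all genes passed. The levels were 0.06 and 0.04 at CT0, 0.44 and 0.25 at CT4, -0.49 and 0.07 at CT8, -0.47 and -0.38 at CT12, -1.35 and -1.40 at CT16, and -1.18 and -1.26 at CT20. The 4 arrays of CT16 and CT20 lay below all 8 others, and the arrays of CT4 lay above all others.

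Col5a3 also passed the test for any difference between the 6 times (adjusted p = 0.0483), where it was again 1 of 37 collagens beside 0.0924% of all genes. Between CT4 and CT16 its level fell by 1.72 ± 0.17 (SE), or 3.29-fold (adjusted p = 0.0250 by the limma contrast), beside 0.174% of all genes called lower. From CT8 to CT20 it fell by 1.01 ± 0.17, which did not pass after adjustment (adjusted p = 0.132). The 4 low arrays are the 4 arrays of slide 3. Slides and blocks of neighbouring times cannot be told apart here. Within slides the differences were 0.29 ± 0.17 from CT0 to CT4, -0.22 ± 0.17 from CT8 to CT12 and 0.16 ± 0.17 from CT16 to CT20, and none passed (adjusted p = 0.606, 0.612 and 0.706). With the slide as a fixed block the fold was 1.52 (adjusted p = 0.495), and as a random block it was 2.86 (adjusted p = 0.115). The test of any difference was lost with either block as well (adjusted p = 0.509 fixed and 0.156 random), and the contrast of CT16 with CT4 was lost with the random block (adjusted p = 0.0703).

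The 24 h result for Col5a3 did not hold for every choice of arrays. Leaving out 1 array at a time kept the fold between 3.04 and 3.59, and the adjusted p stayed under the threshold in 7 of 12 cases. It missed without CT4 replicate 1, CT4 replicate 2, CT16 replicate 1, CT16 replicate 2 or CT20 replicate 1, where it was 0.0739, 0.0598, 0.0698, 0.0742 and 0.0502. The test of any difference passed in 3 of 12 cases, without CT0 replicate 1, CT8 replicate 1 or CT8 replicate 2, and missed with no filter on dim genes (adjusted p = 0.0653). The contrast of CT16 with CT4 passed in 6 of 12 cases and missed without either array of CT4, CT16 or CT20. The second probe for Col5a3 was well above background on 1 array only, so it gives no check of the fold.

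**Figure D1:**
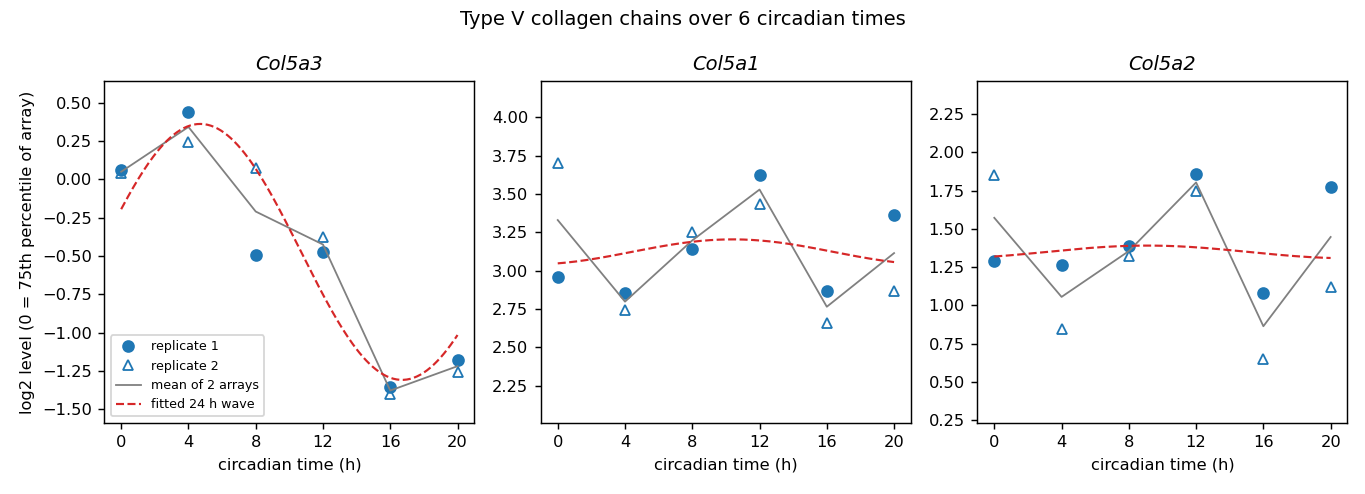
Level (log2, 0 at the 75th percentile of the array) of the 3 type V chains against circadian time in h. Circles and triangles are the 2 arrays of a time, grey lines join their means and dashed lines are the fitted 24 h waves. Col5a3 drops to -1.38 and -1.22 on average at CT16 and CT20, while Col5a1 and Col5a2 have their highest mean at CT12.

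With the probes used, the other type V chains took another course over the arrays. Col5a1 and Col5a2 each had their highest mean at CT12 and their lowest at CT16, with 24 h folds of 1.12 (1.0 to 1.37) and 1.06 (1.0 to 1.33) and adjusted p-values of 0.927 and 0.985. After each gene's mean over the 12 arrays was subtracted, the difference between Col5a1 and Col5a2 had an SD over arrays of 0.131, and that between Col5a1 and Col5a3 an SD of 0.697. The median over all 666 pairs of collagens was 0.445. A second Col5a1 probe, well above background on all 12 arrays, gave a fold of 1.275 with a peak at CT6.3. The unadjusted p of its 24 h test was 0.31. Its centred means were -0.25 at CT16 and -0.19 at CT20, beside 0.04 to 0.15 at the other times. The contrast with Col5a3 thus depends on the Col5a1 probe.

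The probe used for Col5a3 lies at chr9:20639940-20639999 (minus strand, mm7, as the array files give it). The annotation of that build was not used here, so its exon or UTR is not stated. The promoter of Col5a3 is shown because this gene alone passed, and those of Col4a1 and Col4a2 because the pair shares a promoter. The windows run from 250 bases before to 50 bases after the annotated start, 5′ to 3′ on the gene's strand, from RefSeq on GRCm38.p6. Capitals mark CCAAT boxes (CCAAT) and GC boxes (GGGCGG) on either strand.
Col5a3, chr9:20815018-20815317, minus strand: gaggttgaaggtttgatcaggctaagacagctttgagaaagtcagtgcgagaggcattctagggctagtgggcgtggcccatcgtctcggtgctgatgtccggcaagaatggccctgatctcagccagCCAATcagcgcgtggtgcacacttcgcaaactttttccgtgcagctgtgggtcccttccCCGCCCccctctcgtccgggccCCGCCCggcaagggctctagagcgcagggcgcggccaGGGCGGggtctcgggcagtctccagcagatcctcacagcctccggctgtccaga
Col4a1, chr8:11312777-11313076, minus strand: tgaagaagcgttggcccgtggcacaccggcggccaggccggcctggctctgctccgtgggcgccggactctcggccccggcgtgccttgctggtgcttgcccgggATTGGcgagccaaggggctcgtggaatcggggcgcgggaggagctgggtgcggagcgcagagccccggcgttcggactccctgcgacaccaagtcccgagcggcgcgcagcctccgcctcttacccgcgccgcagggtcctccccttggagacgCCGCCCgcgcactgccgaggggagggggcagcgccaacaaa
Col4a2, chr8:11312555-11312854, plus strand: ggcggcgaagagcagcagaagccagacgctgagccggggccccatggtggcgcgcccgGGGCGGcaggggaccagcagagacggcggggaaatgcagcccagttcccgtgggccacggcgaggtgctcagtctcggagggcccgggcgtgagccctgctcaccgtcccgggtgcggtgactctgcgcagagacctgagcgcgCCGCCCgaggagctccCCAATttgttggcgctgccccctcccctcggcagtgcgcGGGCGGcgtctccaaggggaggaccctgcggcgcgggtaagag

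Positions are counted from the start site, with the last base before it as -1. The Col5a3 window held a CCAAT box that begins at -122 and GC boxes that begin at -63, -41 and -4. The starts of Col4a1 and Col4a2 lie 21 bases apart on opposite strands, so their windows share 78 bases. Table entries existed for 30 of the 37 collagens, as 32 windows. The clock-related motifs searched were the E-box CACGTG, read by CLOCK and BMAL1, the core TAGGTCA of sites for ROR and REV-ERB receptors, and the D-box TTATGTAA, each on both strands. They were found in 0 of 32 collagen windows, beside 7.15%, 2.61% and 0.938% of all 32851 windows. GC boxes stood in 62.5% of collagen windows and 35.7% of all, CCAAT boxes in 34.4% and 37.4%, and TATA boxes (TATAAA) in 12.5% and 13.6%. Different motifs shared letters in 0 of the 32 windows. A match here is a description of letters, not of a bound site.

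No other collagen passed the 24 h test, though 6 of 37 had an unadjusted p under 0.05, which is 16.2% beside 15.7% of all genes. The median fold over the 37 was 1.24, beside 1.19 over all genes. Of the 8 largest folds, Col5a3 was followed by Col24a1, Col19a1, Col13a1, Col11a1, Col17a1, Col12a1 and Col27a1.

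**Figure D2:**
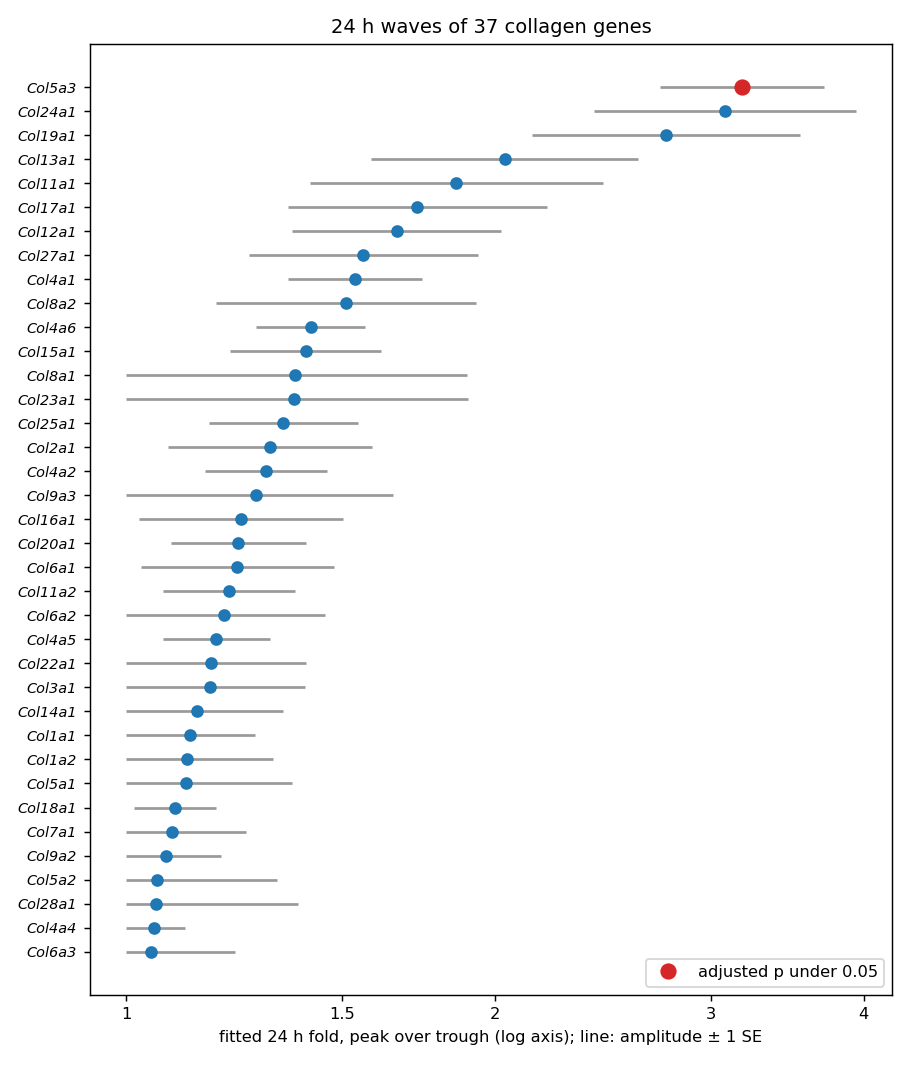
Fitted 24 h fold (peak over trough, log axis) of the 37 collagen genes, sorted. Points are the fitted folds, lines run from the fold at the amplitude minus 1 SE to plus 1 SE, and red marks an adjusted p under 0.05. Col5a3 alone is red, at 3.18, and Col24a1 lies close by at 3.08 with a longer line.

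Col24a1, a minor fibrillar chain known from developing bone, had a fold of 3.08 (2.41 to 3.94) with a peak at CT14.0 (adjusted p = 0.118). Its levels were -4.49 and -3.65 at CT0, -3.46 and -5.05 at CT4, -3.37 and -3.63 at CT8, -2.46 and -2.68 at CT12, -2.92 and -2.96 at CT16, and -3.12 and -3.68 at CT20. The arrays of CT12 and CT16 were all above the others, and the gap of 1.6 between the arrays of CT4 was the largest within any time for any collagen. Its second probe, well above background on all 12 arrays, gave a fold of 1.32 with a peak at CT8.0, so the probes disagree. With the authors' value table Col24a1 passed at a fold of 1.84 (adjusted p = 0.0451).

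Col19a1, a fibril-associated chain found in basement membrane zones, had a fold of 2.76 (2.15 to 3.55) with a peak at CT15.1 (adjusted p = 0.153). It read -4.30 and -3.04 at CT0, -4.45 and -3.69 at CT4, -3.83 and -4.09 at CT8, -2.49 and -2.93 at CT12, -2.30 and -2.91 at CT16, and -3.49 and -3.65 at CT20. Every array of CT12 and CT16 was above every other array. A second probe, above background on 4 arrays, gave 3.11-fold with a peak at CT14.6 (unadjusted p = 0.00444). The third probe was above background on 0 arrays.

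Col13a1, a transmembrane collagen of cell-matrix junctions, had a fold of 2.04 (1.59 to 2.62) with a peak at CT12.7 (adjusted p = 0.317). Its levels were -2.83 and -3.91 at CT0, -2.94 and -3.54 at CT4, -3.19 and -2.63 at CT8, -2.88 and -2.58 at CT12, -2.02 and -2.37 at CT16, and -3.79 and -3.44 at CT20. The arrays of CT16 were the highest of the 12, and the step down to CT20 on the same slide was -1.42 ± 0.38 (adjusted p = 0.204). Its second probe, well above background on 5 arrays only, gave 2.32-fold with a peak at CT11.2.

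Col11a1, which joins type V chains in small fibrils, had a fold of 1.86 (1.41 to 2.45; adjusted p = 0.429). It read -1.07 and -0.34 at CT0, -1.01 and -2.0 at CT4, -0.51 and -0.85 at CT8, 0.14 and -0.19 at CT12, -0.52 and -0.89 at CT16, and 0.09 and -0.77 at CT20. CT4 replicate 2 was the lowest array, and both arrays of CT12 lay above those of CT0, CT4, CT8 and CT16. Without CT4 replicate 2 the fold was 1.43. A second probe, above background on 9 arrays, gave 1.87-fold with a peak at CT8.2, against CT15.2 for the probe used.

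Col17a1, the hemidesmosomal collagen that anchors basal urothelial cells, had a fold of 1.73 (1.36 to 2.21) with a peak at CT5.3 (adjusted p = 0.430). Its levels were 1.54 and 1.03 at CT0, 1.12 and 1.96 at CT4, 0.66 and 1.99 at CT8, 1.36 and 1.04 at CT12, 0.54 and 0.92 at CT16, and 0.34 and 1.24 at CT20. The arrays of CT8 differed by 1.34, more than any 2 time means did. The second probe followed the first with a mean absolute difference of 0.0850 between centred values.

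Col12a1, a fibril-associated chain of tissues under load, had a fold of 1.66 (1.37 to 2.02; adjusted p = 0.360). It read -2.46 and -1.75 at CT0, -2.56 and -3.24 at CT4, -2.60 and -2.66 at CT8, -1.97 and -2.46 at CT12, -2.40 and -2.52 at CT16, and -1.77 and -1.93 at CT20. CT4 replicate 2 was again the lowest array. Col27a1, a minor fibrillar chain, had a fold of 1.56 (1.26 to 1.94; adjusted p = 0.470). Its levels were -2.13 and -1.57 at CT0, -1.95 and -2.87 at CT4, -2.06 and -2.12 at CT8, -1.33 and -1.73 at CT12, -1.64 and -2.06 at CT16, and -1.19 and -2.05 at CT20. Both arrays of CT12 lay above those of CT4 and CT8, and overlapped with the other times.

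The major interstitial collagens had small 24 h folds in the fit without a slide block, and were high or low on the same arrays. Col1a1 and Col1a2, the 2 chains of type I, had 24 h folds of 1.13 (1.0 to 1.27) and 1.12 (1.0 to 1.32), and Col3a1, the chain of type III, had 1.17 (1.0 to 1.40). None passed (adjusted p = 0.809, 0.892 and 0.842). With the slide as a fixed block the folds of Col1a1, Col1a2 and Col3a1 were 1.68, 1.84 and 2.39. None passed there either (adjusted p = 0.40, 0.47 and 0.27). With the slide as a random block the folds were 1.16, 1.13 and 1.23. Col1a1 read 6.99 and 7.37 at CT0, 7.0 and 6.66 at CT4, 7.17 and 7.01 at CT8, 7.34 and 7.26 at CT12, 7.06 and 6.90 at CT16, and 7.35 and 7.02 at CT20. The arrays of CT12 were among the 4 highest, and CT4 replicate 2 was the lowest.

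Col1a2 read 7.60 and 8.10 at CT0, 7.68 and 7.24 at CT4, 7.88 and 7.66 at CT8, 8.11 and 8.00 at CT12, 7.72 and 7.35 at CT16, and 8.01 and 7.56 at CT20. Col3a1 read 6.58 and 6.97 at CT0, 6.31 and 6.10 at CT4, 6.56 and 6.53 at CT8, 7.10 and 6.89 at CT12, 6.52 and 6.22 at CT16, and 6.89 and 6.34 at CT20. In all 3 genes the same arrays were high (CT0 replicate 2, both of CT12, CT20 replicate 1) and the same were low (CT4 replicate 2, CT16 replicate 2). The probe for Col1a1 was spotted 10 times on each array with an SD between spots of 0.0434 to 0.106, which is the technical spread within an array.

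The 8 chains of types I, III, V and VI (Col1a1, Col1a2, Col3a1, Col5a1, Col5a2, Col6a1, Col6a2 and Col6a3), grouped without Col5a3 after their values were seen, had a mean centred level of 0.13 at CT0, -0.28 at CT4, 0.05 at CT8, 0.36 at CT12, -0.32 at CT16 and 0.06 at CT20. By array the mean was highest at 0.44 in CT12 replicate 1 and lowest at -0.48 in CT16 replicate 2. At CT0 the arrays read -0.09 and 0.36, and at CT20 they read 0.28 and -0.17. With the probes used, all 8 genes were higher at CT12 than at CT8 (48.7% of all genes). All 8 were lower at CT4 than at CT0, where 45.4% of all genes were higher. All 8 were also higher at CT20 than at CT16 (48.4% of all genes), with a median of 0.39. None of these differences passed after adjustment. The choice of members bears on these counts. Col5a3, the type V chain left out, differed the other way from CT0 to CT4 and from CT8 to CT12. It differed the same way, by 0.16, from CT16 to CT20. The choice of probe bears on the counts of the first 2 of these steps too. Among further probes well above background on all 12 arrays, that of Col6a3 differed by 0.37 from CT0 to CT4. That of Col5a1 differed by -0.08 in this step and by 0.02 from CT8 to CT12. Those of Col1a1, Col3a1 and Col6a2 kept the sign from CT0 to CT4 and from CT8 to CT12. In the test of any difference, 1 of the 8 (Col6a1) had an unadjusted p under 0.05, and 0 passed. Over the family that count was 5 of 37, beside 19% of all genes.

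**Figure D3:**
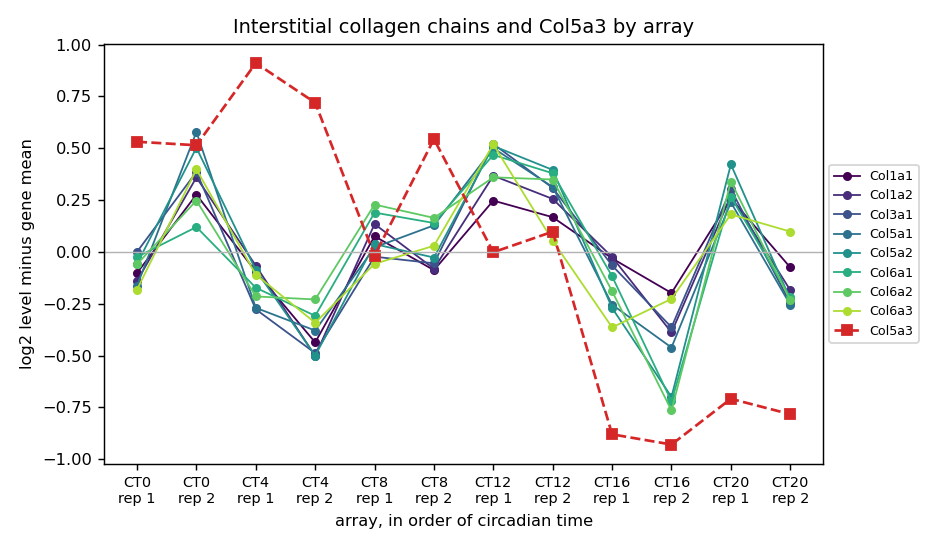
Centred level (log2 level minus the gene's mean over 12 arrays) of 8 interstitial collagen chains and, dashed with squares, Col5a3, by array in order of circadian time. Lines only guide the eye between arrays. The 8 chains lie close together on most arrays, with a mean of 0.44 in CT12 replicate 1 and -0.48 in CT16 replicate 2. Col5a3 lies outside their range on both arrays of CT4, CT16 and CT20. It also does so in CT0 replicate 1 (0.53), CT8 replicate 2 (0.54) and CT12 replicate 1 (-0.0014).

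Pairs of chains that can assemble into 1 molecule differed widely in how close their profiles were. Col6a1 and Col6a2, 2 chains of type VI whose starts lie 102414 bases apart on the same chromosome, differed with an SD of 0.0693 over arrays, the smallest of the 666 pairs. Col1a1 and Col1a2, on different chromosomes, came next at 0.0892. Col6a3, a longer type VI chain, differed from Col6a1 by an SD of 0.253. At the other end, Col8a1 and Col8a2 were at 0.431, near the median of all pairs, and Col5a1 and Col5a3 above it at 0.697. Closeness was not limited to partners: Col2a1 and Col3a1 differed by 0.131, although type II and type III do not form a molecule together. That holds for the Col2a1 probe used. A second Col2a1 probe, well above background on all 12 arrays, differed from it by a mean absolute 0.335. The arrays, their RNA and their scaling are shared by all pairs, so these values are descriptive.

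Over the family, the first principal component of scaled values held 44.2% of the variance, and 28 of 37 genes had a positive loading on it. Its array scores were highest in CT0 replicate 2 (6.20) and CT12 replicate 1 (5.98) and lowest in CT4 replicate 2 (-6.37) and CT16 replicate 2 (-5.00). The arrays of CT0 stood apart on it, at -1.12 and 6.20. The median gap between the arrays of CT0 was 0.50 over collagens and 0.19 over all genes, and at CT20 it was 0.33 and 0.13. At CT8 the gap was no larger in collagens, at 0.17 and 0.18.

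**Figure D4:**
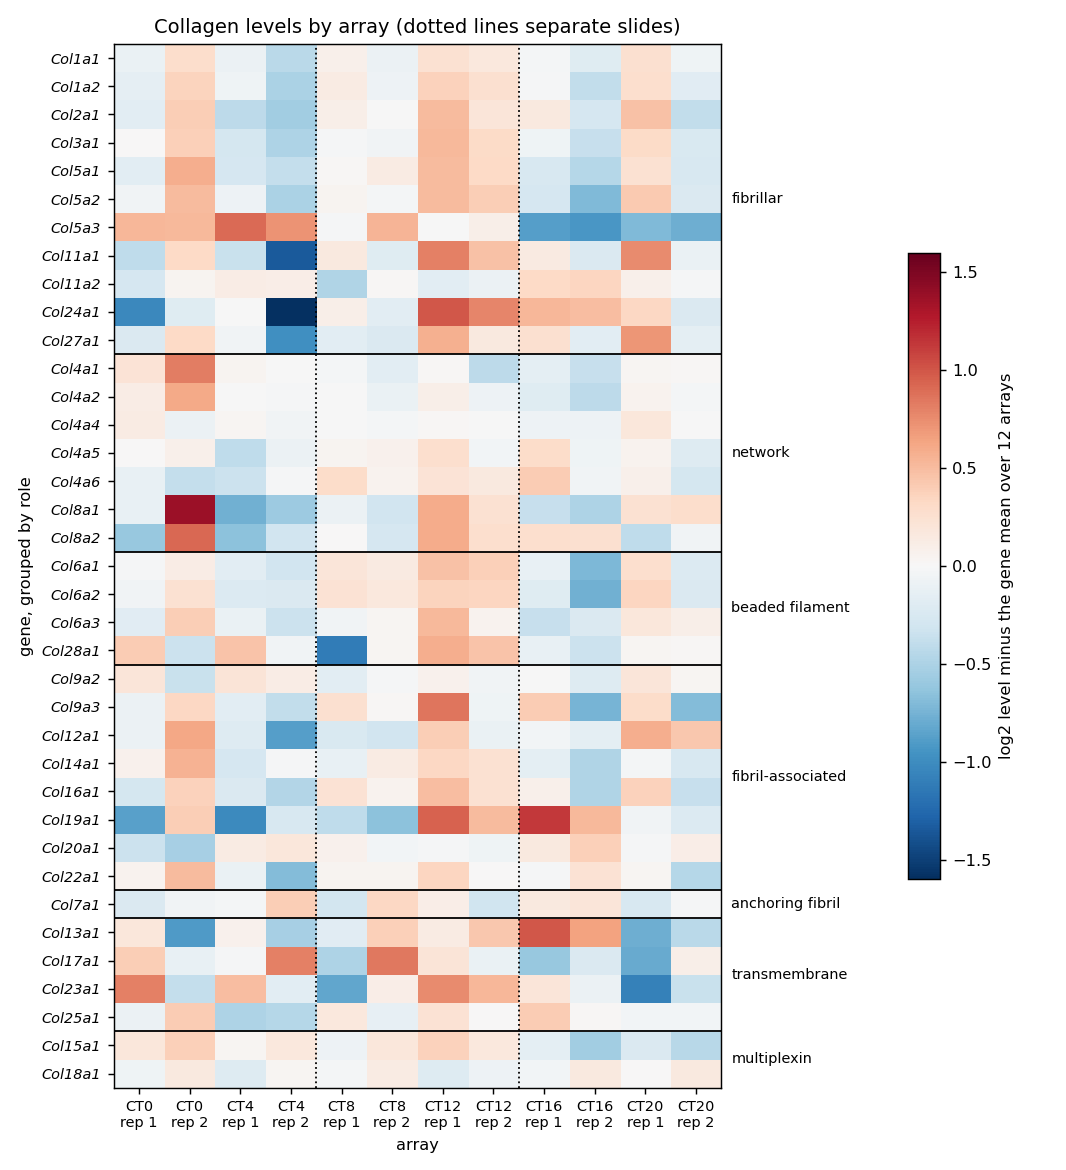
Centred level (colour, log2 level minus the gene's mean over 12 arrays) of the 37 collagens in rows, grouped by role, in the 12 arrays in columns. Dotted lines part the 3 slides. Red columns at CT0 replicate 2 and CT12 and blue columns at CT4 replicate 2 and CT16 replicate 2 run through many rows. Col5a3 is blue over the whole of slide 3, and so, more faintly, are Col14a1 and Col15a1.

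By time, 19 of 37 collagens had their highest mean at CT12, beside 15.9% of all genes. Col28a1, kept partly through its CT12 arrays, is among them, and also among the genes counted as higher at CT12 than at CT8 in the next paragraph. Their lowest mean fell at CT4 in 16 (16.3% of all genes) and at CT16 in 13 (19.8%). These counts moved with single arrays: without CT0 replicate 1 only 11 were highest at CT12, and without CT16 replicate 2 only 6 were lowest at CT16. With the median in place of the 75th percentile for scaling, 8 were lowest at CT16.

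Neighbouring times on 1 slide could be compared without a change of slide. From CT0 to CT4 the difference was positive in 9 of 37 collagens (45.4% of all genes), with a median of -0.35 beside -0.02. In 16 collagens both arrays of CT4 lay below both of CT0, beside 22.2% of all genes. From CT8 to CT12 the difference was positive in 31 of 37 (48.7% of all genes), with a median of 0.22 beside -0.01. In 20 collagens both arrays of CT12 lay above both of CT8, beside 20.2% of all genes. From CT16 to CT20 it was positive in 24 (48.4%), with a median of 0.17 beside -0.01. There the arrays of CT20 lay wholly above in 10 collagens and wholly below in 9, beside 25.3 and 27.5% of all genes. By the limma contrasts 0 collagens passed in any of these, beside 0, 0 and 0.00544% of all genes, while 8, 2 and 1 had an unadjusted p under 0.05 (9.27, 12.9 and 14.1% of all genes).

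Leaving out arrays moved these medians. The median of CT4 minus CT0 lay between -0.62 (without CT0 replicate 1) and -0.16 (without CT0 replicate 2). That of CT12 minus CT8 lay between 0.15 and 0.32. That of CT20 minus CT16 was -0.03 without CT20 replicate 1. Times 12 h apart lie on different slides. Their medians were 0.20 for CT12 minus CT0 (-0.04 for all genes), 0.12 for CT16 minus CT4 (0.02) and 0.02 for CT20 minus CT8 (0.02). Without CT0 replicate 1 the first was -0.04. Of single collagens, 0, 1 and 0 passed (0.196, 0.397 and 0.0598% of all genes), the 1 being Col5a3, and 4, 6 and 2 had an unadjusted p under 0.05 (10.7, 20.9 and 12.2%).

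Terms of 12 h were added to the fit after the data were seen. They were past the threshold in 0 of 37 collagens and in 0% of all genes. The unadjusted p was under 0.05 in 14 of 37, beside 10.7% of all genes. For the interstitial chains the 12 h peak lay at 10.3 h for Col6a2 and 11.0 h for Col3a1, which is near CT11 and again near CT23.

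Among the network collagens of basement membranes, Col4a1 and Col4a2, the chains of the ubiquitous type IV molecule, were highest at CT0 and lowest at CT16. Col4a1 read 3.09 and 3.68 at CT0, 2.91 and 2.86 at CT4, 2.84 and 2.70 at CT8, 2.88 and 2.44 at CT12, 2.72 and 2.50 at CT16, and 2.90 and 2.89 at CT20. Both arrays of CT0 lay above all others. Its 24 h fold was 1.54 (1.36 to 1.74) with a peak at CT0.5 (adjusted p = 0.227), and from CT0 to CT12 it differed by -0.72 ± 0.21 (adjusted p = 0.326). Col4a2, which shares its promoter as shown above, had a fold of 1.30 (1.16 to 1.46) with a peak at CT1.3 (adjusted p = 0.425). The difference between them had an SD of 0.132 over arrays. Second probes for each peaked at CT0.6 and CT0.8, with folds of 1.18 and 1.37. The second probe of Col4a1 had centred means of 0.28 at CT0 and 0.10 at CT12, a smaller difference than with the probe used.

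**Figure D5:**
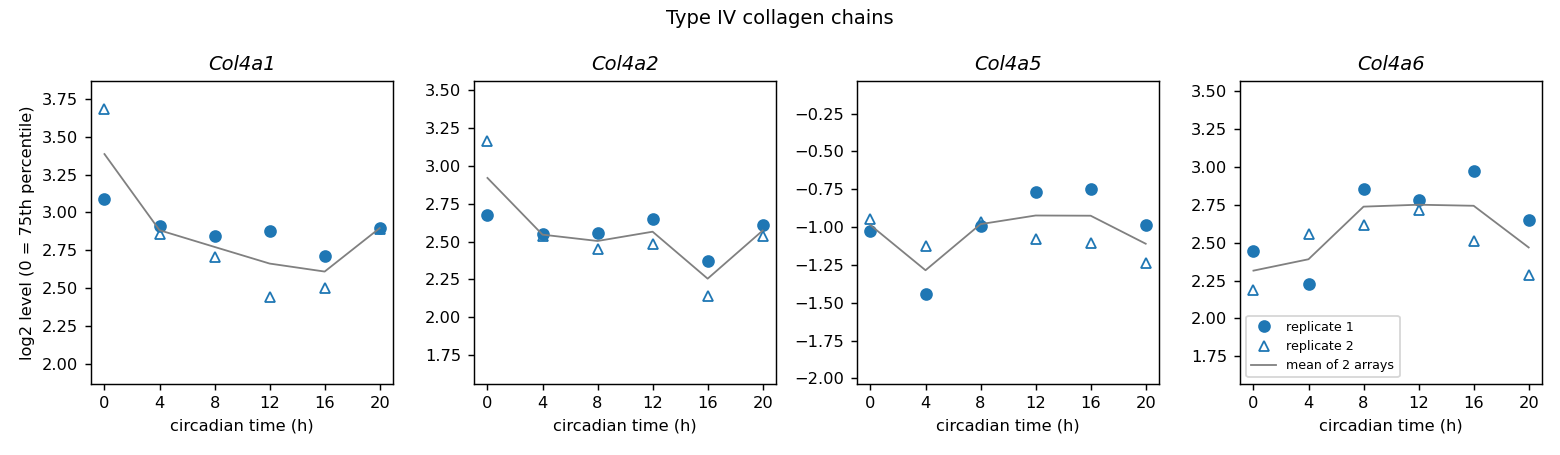
Level (log2, 0 at the 75th percentile of the array) of 4 type IV chains against circadian time in h, with circles and triangles for the 2 arrays of a time and lines for their mean. Col4a1 and Col4a2 are highest at CT0, with means of 3.39 and 2.92, and Col4a6 has its highest mean at CT12.

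Col4a5 and Col4a6, paired chains of smooth muscle basement membranes, had folds of 1.19 (1.07 to 1.31) and 1.42 (1.28 to 1.57), with Col4a6 at CT12.4 (adjusted p = 0.580 and 0.231). Further probes of Col4a6, 2 in number, were well above background on all arrays, with peaks at CT12.1 (1.43-fold, unadjusted p = 0.0351) and CT17.0 (1.09-fold). Col4a4, which with its partners makes the type IV of kidney filters, had the smallest range of time means of any collagen, at 0.17. That holds for the probe used. A second Col4a4 probe, well above background on all 12 arrays, had centred means from 0.25 at CT12 to -0.40 at CT20.

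Col8a1 and Col8a2, short chains that form lattices around vessels, had the widest gaps at CT0. Col8a1 read 3.47 and 4.96 at CT0, 2.82 and 3.01 at CT4, 3.49 and 3.29 at CT8, 4.18 and 3.83 at CT12, 3.22 and 3.10 at CT16, and 3.83 and 3.87 at CT20. Col8a2 read 0.48 and 2.0 at CT0, 0.44 and 0.78 at CT4, 1.09 and 0.82 at CT8, 1.69 and 1.35 at CT12, 1.35 and 1.34 at CT16, and 0.68 and 1.03 at CT20. The high array was CT0 replicate 2 in both. Between CT0 and CT4 Col8a1 differed by -1.30 ± 0.40 (adjusted p = 0.478). The difference rested on which CT0 array was used. With CT0 replicate 2 as the lone array it was -2.04 for Col8a1 and -1.39 for Col8a2 (adjusted p = 0.00767 and 0.0471). With CT0 replicate 1 alone it was -0.55 and, with the sign turned, 0.13 (adjusted p = 0.944 and 0.999). A second probe of Col8a1 differed from the first by a mean of 0.121.

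The other groups gave no call. The beaded-filament genes are the type VI chains above and Col28a1, whose time means spanned 1.06. Col28a1 reached the filter partly through its CT12 arrays, so its high level there is not read as a result. Among the 8 fibril-associated genes, Col20a1 had the lowest unadjusted p of any collagen between CT0 and CT4, at 0.59 ± 0.11 higher (unadjusted p = 0.000653, adjusted p = 0.445), against the direction of most of the family. Col14a1, a collagen of mature fibrils, and Col16a1 had folds of 1.14 and 1.24, Col22a1, a collagen of tissue junctions, had 1.17, and Col9a2 and Col9a3 had 1.08 and 1.28 (adjusted p = 0.860, 0.761, 0.837, 0.885 and 0.819).

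Col7a1, the anchoring fibril beneath epithelia, had a fold of 1.09 (1.0 to 1.25). Of the other transmembrane genes, Col23a1 had 1.37 and Col25a1 1.34. The multiplexins of vessel and epithelial basement membranes had 1.40 for Col15a1 and 1.1 for Col18a1, the parents of the fragments restin and endostatin. Col15a1 had its highest mean at CT0 and its lowest at CT16, and its second probe did likewise with 1.81-fold. The fitted 24 h peaks of these probes were at CT5.7 (adjusted p = 0.41) and CT5.0. With the probe used, the Col15a1 arrays of CT16 and CT20 all lay below those of the other times, as in Col5a3. Of the fibrillar genes not yet named, Col11a2 had 1.21 and Col2a1 1.31. Col2a1, the collagen of cartilage, was well above background on all 12 arrays with 2 of its 3 probes. These 2 disagreed over time, with peaks at CT14.6 and CT18.7 and changes from CT0 to CT4 of -0.60 and 0.12. The third was above background on 0 arrays, as were the cartilage and bone markers Matn1, Matn3, Cnmd and Ibsp. Of the 14 genes of that list 6 were above background on all arrays. The summed level of all 14 was 25.4 to 43.6 times the 75th percentile, and their part in the Col2a1 signal was not tested.

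Genes that make, trim, degrade and bind collagen did not pass the 24 h test or the test of any difference. Their median 24 h folds are given beside 1.19 for all genes. Of 21 measured genes for folding and modification of chains, the median was 1.13 and 1 had an unadjusted p under 0.05. That was Tmem38b, an endoplasmic reticulum ion channel needed for collagen hydroxylation (1.96-fold, peak CT16.9, adjusted p = 0.150). It rose by 1.22 from CT4 to CT16 (adjusted p = 0.0390 by the limma contrast), beside 0.223% of all genes called higher, and those times lie on different slides. P4ha1, a prolyl hydroxylase subunit, and Ppib, a prolyl isomerase, followed at 1.46-fold and 1.13-fold (adjusted p = 0.325 and 0.408).

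Of 10 measured genes for cleavage and crosslinking, the median was 1.22 and 2 had an unadjusted p under 0.05. Loxl4, a lysyl oxidase homologue that crosslinks collagen, fell by 1.97 from CT4 to CT16 (adjusted p = 0.0308 by the limma contrast), beside 0.174% of all genes called lower. With the slide as a random block neither it nor Tmem38b passed (adjusted p = 0.0834 and 0.102). Its 24 h fold was 2.68 with a peak at CT5.2 (adjusted p = 0.282). Loxl1 gave 1.80-fold at CT2.9 (adjusted p = 0.189) and Lox 1.73-fold at CT22.2 (adjusted p = 0.408). Of 13 measured genes of breakdown and its inhibitors, with a median of 1.33 and 1 unadjusted p under 0.05, Mmp9, a gelatinase, came first at 2.37-fold and CT6.6 (adjusted p = 0.153). Mmp3 and Mmp14 had 2.46-fold and 1.34-fold (adjusted p = 0.319 and 0.355).

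Of the 12 collagen receptors, with a median of 1.23 and 2 unadjusted p-values under 0.05, the integrin chain Itga11, which binds fibrillar collagen on fibroblasts, had 2.04-fold at CT16.1 (adjusted p = 0.227). Lair1, an inhibitory receptor of leukocytes, had 1.73-fold at CT5.2 and Ddr2, a kinase receptor for fibrillar collagen, 1.33-fold at CT16.7 (adjusted p = 0.248 and 0.342). Of 16 fibril-binding matrix genes, with a median of 1.21 and 1 unadjusted p under 0.05, Tnxb, a tenascin that links fibrils, had 1.60-fold at CT9.1 (adjusted p = 0.127). Comp and Omd had 1.65-fold and 1.40-fold (adjusted p = 0.440 and 0.474). Between CT8 and CT12 this list was higher in 15 of 16 genes (48.7% of all genes) with a median of 0.38. Of these, 0 passed and 5 had an unadjusted p under 0.05 (12.9% of all genes). From CT16 to CT20, 9 of 16 were higher, with a median of 0.09.

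Marker levels varied with the arrays too, and their part in the collagen values was not tested. The summed linear level of the 15 fibroblast markers lay between 789.8 and 944.4 times the 75th percentile, highest in CT12 replicate 1 and lowest in CT16 replicate 2, the same arrays as for the interstitial chains. Other arrays did not match: the sum was 801 in CT0 replicate 2 and 858.1 in CT4 replicate 2. There the interstitial chains had means of 0.36 and -0.40. The 2 arrays of CT12 had nearly the same sum (944.4 and 943.4). The mean centred log2 level of the fibroblast markers was 0.15 at CT12, -0.14 at CT16 and -0.04 at CT4. The sum of the 14 urothelial markers was lowest in CT12 replicate 1 at 1020 and highest in CT20 replicate 2 at 1524, and 0 of the 14 were higher at CT12 than at CT8. The smooth muscle sum lay between 1692 and 2276, highest in CT0 replicate 2. The adipocyte sum ranged from 256.1 in CT0 replicate 2 to 793.5 in CT12 replicate 2, and the hepatocyte sum from 0.706 to 45.0, both extremes at CT20. Endothelial markers (11 of 11 on all arrays) lay between 50.2 and 64.7, and leukocyte markers between 90.8 and 144.4.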

How the data were processed

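The deposited scanner files give a processed intensity for each spot, made by Agilent Feature Extraction per the file headers, and their other columns hold yes-or-no marks. A deposited table by the authors holds log2 values; its normalisation is not given in the sources used here, the submitters' processing notes name R 2.8.1, and it served as an alternative. Log2 processed signals of 43379 non-control spots, without outlier spots, were averaged per probe and scaled by the array's 75th percentile. Genes well above background on at least 4 of 12 arrays were tested in limma 3.58.1 (R 4.3.3): a 24 h harmonic F-test (9 residual degrees of freedom), a 1-way F-test over 6 times (6) and 6 contrasts, checked on simulated data. The number of arrays limits the precision. Alternatives were other background corrections, scalings, filters, probes and blocks, and leaving out each array. Members and lists were chosen with earlier results of these data known. Values in every array are given for members past a threshold, the 8 largest folds, Col1a1, Col1a2, Col3a1, Col4a1 and the widest gaps. Of other lists, genes past the threshold or up to 3 with the lowest 24 h p are named.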

Additional observations from a re-analysis of the deposited data

How the results depend on the processing

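Col5a3 kept its direction under every setting run. Against 1 collagen with a 24 h wave, 2 passed with the authors' table (Col24a1 joined), 0 with the slide as a fixed or random block, and 0 to 2 when 1 array was left out (Col8a2 joined without CT0 replicate 2). For any difference 1 became 0 with no filter on dim probes (Col5a3 adjusted p = 0.0653), with the slide as a fixed or random block (0.509 and 0.156) and with the replicate block (0.0723). Leaving out 1 array gave 0 to 2 collagens (Col8a1 joined without CT0 replicate 1) and an adjusted p of 0.0142 to 0.196 for Col5a3. For CT16 minus CT4, 1 became 0 with the slide as a random block (-1.72, adjusted p = 0.0703), and leaving out 1 array gave 0 to 1, with differences of -1.82 to -1.62 that passed in 6 of 12 cases. The 24 h fold of Col5a3 was 1.52 with the slide as a fixed block, 2.86 as a random block and 3.04 to 3.59 with 1 array left out. CT4 minus CT0 gave 0 to 2 collagens and CT20 minus CT8 0 to 1 with 1 array left out, where the lone array is assumed to vary like the others. The 12 h terms, chosen after seeing the data, gave 0. Over all genes, 114 with a 24 h wave became 42 to 104 with 1 array left out and 2 to 168 in other settings, 17 with any difference became 7 to 137 and 0 to 48, and 73 for CT16 minus CT4 became 0 to 77 and 2 to 450. With a fixed slide block, contrasts of times 12 h apart could not be fitted. Same-numbered arrays deviated together with r from -0.20 to 0.44 over 15 pairs of times, 10 of them over 0.1, so the replicate numbers were not taken to pair the arrays. The replicate block left the 24 h fold of Col5a3 at 3.18 (adjusted p = 0.0354). With 2 arrays per time, dim probes such as those of Col28a1 and Col9a3 are the least certain.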
